A study of Mus musculus with 5 samples.

Results

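The BCL2 family decides at the outer mitochondrial membrane whether a stressed cell lives or dies. Its pro-survival proteins hold the effectors BAX and BAK in check, BH3-only proteins relieve that restraint under stress, and freed effectors perforate the membrane so that cytochrome c escapes and caspases are activated. Mature fat cells are long-lived and no longer divide, and this balance is one influence on their resistance to death signals. Neither cell division nor death was measured here. The family was represented here by a list of 10 genes: the pro-survival Bcl2, Bcl2l1, Bcl2l2 and Mcl1, the effectors Bax and Bak1, and the BH3-only Bid, Bcl2l11, Bbc3 and Pmaip1. A probe set was taken where the platform annotation gave it a single symbol on that list. This found 9 of the 10 genes, each by 1 probe set, among 19505 genes with a symbol in the table. Bax was not analysed here, so Bak1 was the only effector.

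The RNA came from the mouse line 3T3-L1, fibroblast-like cells that turn into adipocytes when treated with an adipogenic mixture, and each sample was run on 1 Clariom S array. All cells had been differentiated for 4 days with insulin at 5 µg/mL, dexamethasone at 1 µM and IBMX at 0.5 mM, followed by 2 days of insulin and 1 day of basal medium, and were kept in RPMI-1640 with 10% FBS for a final 72 hours. In the 3 exposed samples this last period was shared with MM.1S, a human multiple myeloma line, held behind a membrane with 0.4 µm pores, and in the 2 control samples no myeloma cells were added. The labels number the replicates without saying that they were separate cultures, so a p-value here reflects only how far these samples scatter, and that scatter may be technical.

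The deposited values are log2 expression levels. Array medians lay between 4.80 and 4.88, and precision is limited by the 5 arrays. The adipocyte identity of the samples was borne out by Adipoq at 11.39 to 11.73 and Fabp4 at 12.34 to 12.41 over the 5 arrays. The 7 measured B and plasma cell markers had a median level of 3.93 and the 6 measured macrophage markers one of 3.18, both below the median of 4.81 over all probe sets. Of these markers Sdc1, at 7.26 to 7.81, and the macrophage gene Lyz2, at 4.82 to 5.20, lay above that median. The probe sets are annotated to mouse genes, so their levels cannot be read as the amount of human MM.1S RNA. The 6 measured preadipocyte and fibroblast markers had a median level of 8.92. As a summed picture of other cells, the mean level of the preadipocyte markers was 7.98 to 8.13 on exposed and 8.15 to 8.18 on control arrays, and that of the plasma cell markers was 3.84 to 4.3 against 3.92 to 4.19. The macrophage markers had a mean level of 3.35 to 3.47 on exposed and 3.49 to 3.59 on control arrays, so for these and the preadipocyte markers the list means did not overlap. Taken singly, only 1 of the 6 markers in each of these lists had every exposed array on one side of both controls, beside 17.3% of all probe sets. These were Dlk1, at a high mean level of 10.45, and C1qa, at a low mean level of 2.40. Of the 8 measured adipocyte markers, 1 had every exposed array above both controls, Retn, and 1 had every exposed array below, Cebpa. The shares over all probe sets were 8.5% and 8.84%. The part of other cells in the results below was not tested. Exposed arrays 1 and 3 were the farthest apart of all pairs, with 425 probe sets more than 2-fold different, whereas exposed array 2 and control array 1 were closest, with 107. Array 3 of the exposed group touches the result on Bcl2l1, which is therefore given with and without it.

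No BCL2 family gene was called between exposed and control adipocytes. With limma and Benjamini-Hochberg adjustment over all probe sets, 0 of the 9 genes passed an adjusted p of 0.05, where the share called among all probe sets was 0%. At an unadjusted p under 0.05 the count was also 0 of 9, against 3.49% of all probe sets. A mean difference past 2-fold was found for 0 of the 9 genes and for 0.018% of all probe sets. In mean, 5 genes were higher and 4 lower with myeloma cells, and the median difference over the family was 0.0003 on the log2 scale, beside -0.0004 over all probe sets. The 95% interval excluded a 2-fold difference in either direction for 8 of the 9 genes, all but Bcl2l1, and for 92.9% of all probe sets. The family's genes had a median range over the 5 arrays of 0.30, beside 0.50 for the median probe set of the table. The ranges of Bcl2l1, at 1.30, and Bcl2l11, at 0.576, were above that table median. Of the 9 genes, 8 lay above the table's median level, the exception being Pmaip1, and dim signals are compressed by the normalization used.

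**Figure D1:**
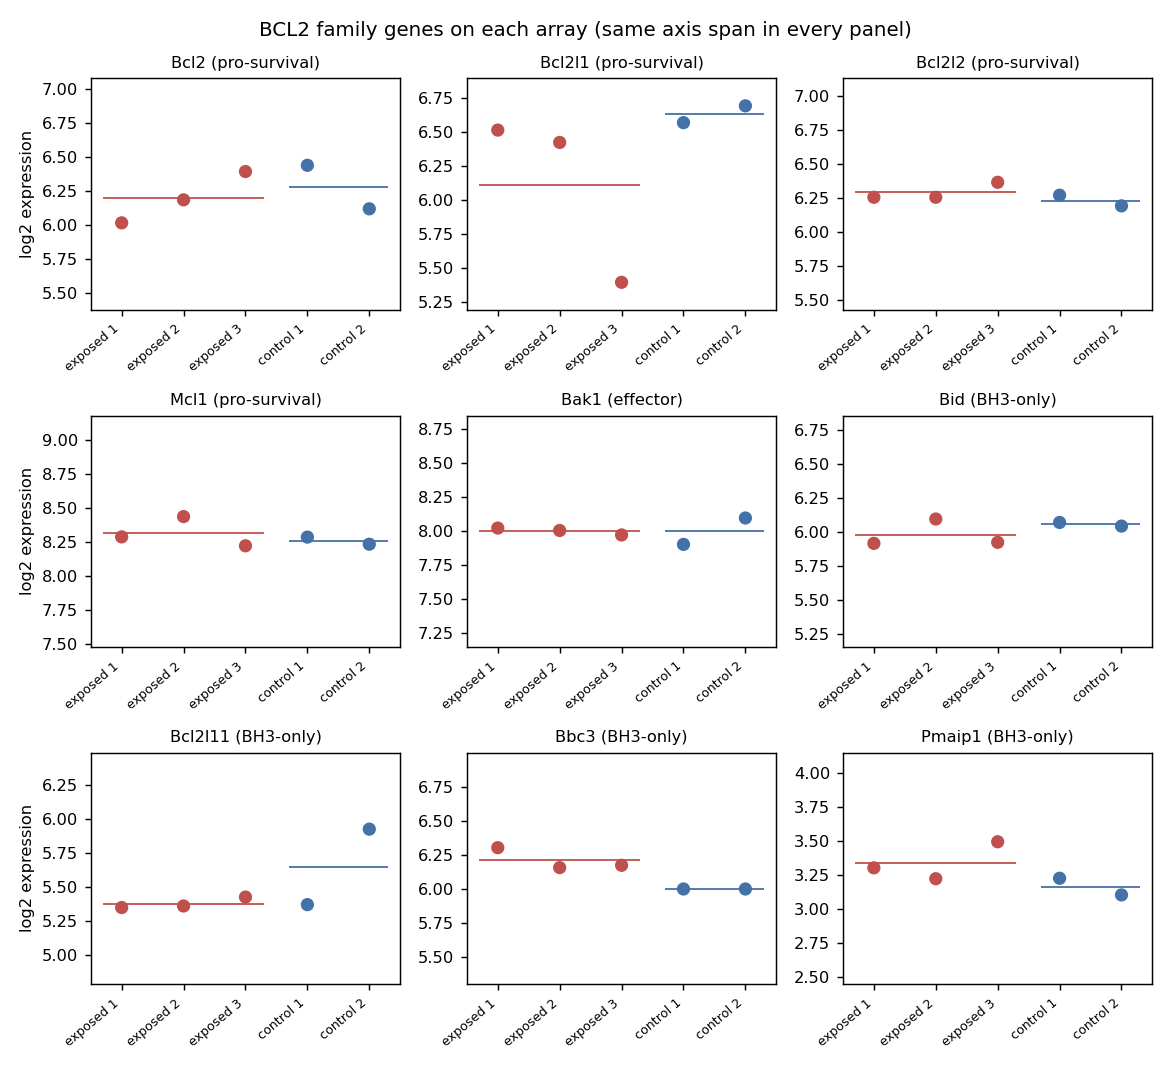
Log2 expression of each measured BCL2 family gene (vertical axes, each spanning the same number of log2 units) on the 3 exposed arrays (red points) and the 2 control arrays (blue points), with lines at the group means. Most genes form a level row, and the points that leave it are Bcl2l1 on exposed array 3 at 5.39 and Bcl2l11 on control array 2 at 5.93.

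The pro-survival genes were led in steadiness by Mcl1 and Bcl2l2. Mcl1 encodes a short-lived guardian that binds BAK and BH3-only proteins and is quickly lost when its synthesis stops. It read 8.29, 8.44 and 8.23 on exposed arrays 1 to 3 and 8.29 and 8.24 on the control arrays. The groups overlapped, and only exposed array 2 stood slightly above the rest. The difference was 0.06 (95% interval -0.26 to 0.37; limma adjusted p 0.97), which corresponds to 0.834-fold to 1.29-fold. Its sign was negative, at -0.0051, without exposed array 2.

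Bcl2l2 encodes BCL-w, a relative of BCL2 with the same guarding role. It read 6.26, 6.26 and 6.37 on the exposed and 6.27 and 6.19 on the control arrays, and exposed arrays 1 and 2 held the identical value. The groups overlapped within a range of 0.173, the narrowest of the 9 genes. The difference was 0.06 (-0.24 to 0.36; limma adjusted p 0.96).

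Bcl2, the founding member of the family, varied more within each group than between them. Its exposed values were 6.01, 6.18 and 6.39 and its control values 6.44 and 6.12. Both groups spread over most of the same range, with the lowest reading on exposed array 1 and the highest on control array 1. The difference of -0.08 (-0.50 to 0.34; limma adjusted p 0.96) turned positive without either of these arrays, at 0.010 without exposed array 1 and 0.079 without control array 1.

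Bcl2l1 stood apart from the family because of 1 array. The gene encodes BCL-XL, a main guardian of long-lived cells, and by alternative splicing also the shorter BCL-XS, which favours death; the single probe set does not tell the isoforms apart. It read 6.51 and 6.42 on exposed arrays 1 and 2, 5.39 on exposed array 3, and 6.57 and 6.69 on the control arrays. All exposed values lay below both control values, but exposed arrays 1 and 2 were only slightly lower, and array 3 was 1.15 log2 units, or 2.23-fold, below the mean of the other 4. The group levels were 6.11 ± 0.62 (SD, n = 3) and 6.63 ± 0.09 (SD, n = 2). The difference of -0.52 (-1.36 to 0.32; limma adjusted p 0.93) did not exceed the spread between replicates, and its interval did not exclude a 2-fold decrease. Without exposed array 3 it was -0.16 (limma adjusted p 0.88).

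**Figure D2:**
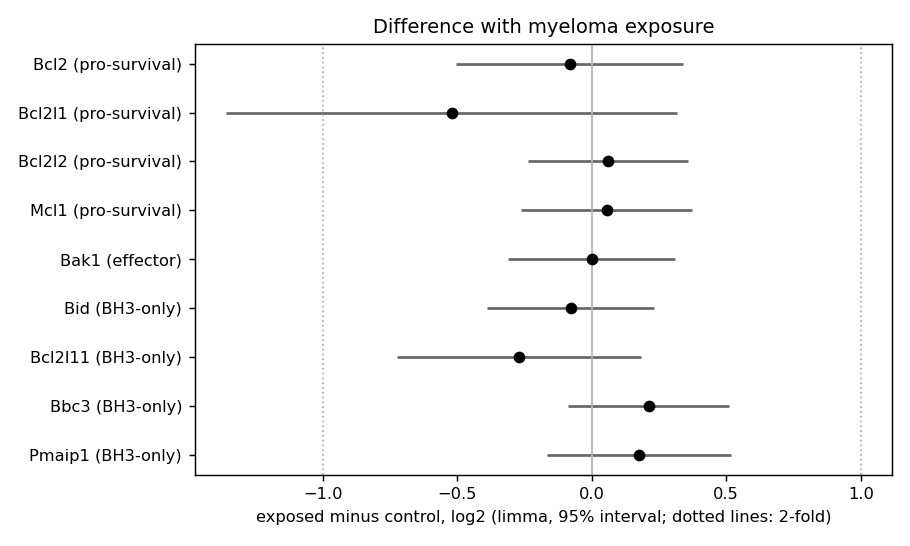
Difference between exposed and control arrays for each BCL2 family gene (points, log2 scale, exposed minus control) with its 95% interval from limma (lines); dotted lines mark 2-fold. All 9 intervals include 0, and that of Bcl2l1, from -1.36 to 0.32, is the only one that crosses a 2-fold line.

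Departures of this size on a single array were rare in the table but not limited to Bcl2l1. The reading on exposed array 3 lay 1.03 log2 units from its nearest neighbour, and a distance of at least 1 unit was found for 88 probe sets, or 0.396% of all. Exposed array 3 was the outermost array at 28 of the 88, 16 times at the low end and 12 times at the high end, and control array 2 at 30, with 23 at the high end. At or above the median level, where Bcl2l1 lies, there were 19 such probe sets. Of those 19, 11 were on exposed array 3, 9 of them at the low end, 6 on exposed array 1, 1 on each control array and 0 on exposed array 2. The range of Bcl2l1 over the arrays, 1.30, was reached or passed by 1.74% of probe sets.

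By likeness of pattern, the 3 named genes closest to Bcl2l1 were Masp2, Ttyh2 and Dzip1l, with root mean square differences between centred values of 0.043, 0.047 and 0.075 log2 units over the 5 arrays. Each was low on exposed array 3 alone, which follows from choosing them by likeness to Bcl2l1. Masp2, a protease gene of the lectin pathway of complement, read 3.94 there and 4.85 to 5.21 on the other arrays. Ttyh2 read 5.60 against 6.58 to 6.83, and Dzip1l 4.47 against 5.29 to 5.73. Of the 8 measured adipocyte markers, 4 were lowest on that array: Plin1, Cebpa, Cidec and, only narrowly, Pparg (10.953 against 10.955 on control array 2). Another 2, Adipoq and Retn, were highest there. This tally and the name of Plin1, the lipid droplet gene at 9.08 there against 9.77 to 9.90 elsewhere, were chosen after the values had been seen. In RNA from whole cultures, fewer cells of a kind and less RNA per cell cannot be told apart, and the part of either in the low reading was not tested.

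**Figure D3:**
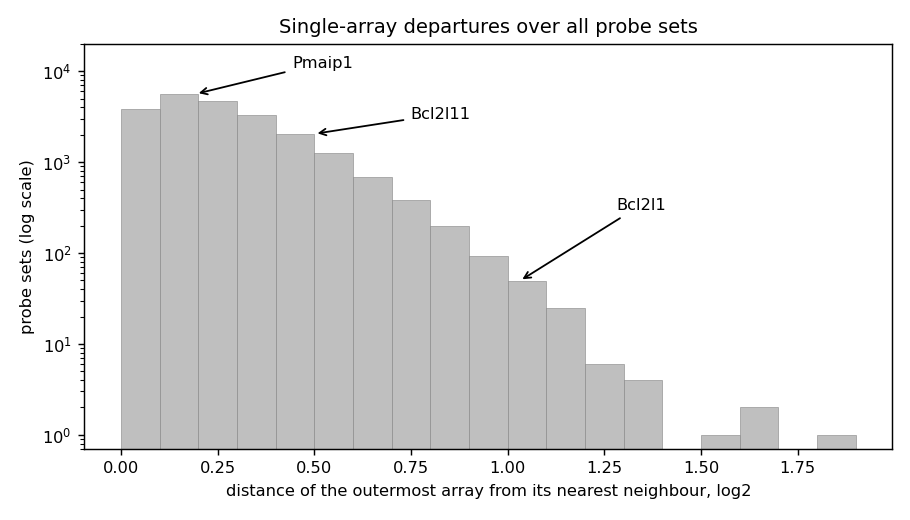
Number of probe sets (vertical axis, log scale) by the distance of the outermost array from its nearest neighbour (horizontal axis, log2 units), over all 22206 probe sets, with arrows at 3 BCL2 family genes. Bcl2l1 at 1.03 lies among the 88 probe sets at or beyond 1, Bcl2l11 at 0.499 in the upper slope and Pmaip1 at 0.192 in the bulk.

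Bak1, the measured effector, did not separate the groups. BAK sits in the outer mitochondrial membrane already in healthy cells and forms pores once activated. Its values were 8.02, 8.001 and 7.97 on the exposed arrays and 7.90 and 8.09 on the control arrays. The exposed arrays lay between the controls, so the control pair spanned the whole range. The difference was 0.0003 (-0.31 to 0.31; limma adjusted p 1), a value whose sign was negative once each array was centred on its median, at -0.018.

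Among the 4 BH3-only genes, Bbc3 was the only one with all its deposited exposed values above both controls. Bbc3 encodes PUMA, which p53 induces and which can bind all the pro-survival proteins. It read 6.30, 6.16 and 6.17 on the exposed arrays and 5.998 on both control arrays. The exposed readings lay close together above the controls, and the controls held an identical value, so that their SD of 0 is no measure of the spread. The difference was 0.21 (-0.09 to 0.51; limma adjusted p 0.93), a 1.16-fold higher mean, and did not pass the test. It stayed between 0.17 and 0.24 with any 1 exposed array left out. Leaving out either control array could only return 0.21 again, because the controls held the same value. Every exposed array lay above both controls for 8.5% of all probe sets and below both for 8.84%, and in the family for 1 gene in each direction, Bbc3 and Bcl2l1, which is 2 of 9 beside 17.3% of all probe sets. With arrays centred on their medians Pmaip1 joined Bbc3, and after a further quantile normalization Bcl2l1 no longer separated the groups.

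Bcl2l11 encodes BIM, a potent killer that survival signals keep at a low level. It read 5.35, 5.36 and 5.43 on the exposed arrays and 5.37 and 5.93 on the control arrays. Control array 1 fell among the exposed readings, and control array 2 stood alone, 0.55 log2 units or 1.46-fold above the mean of the other 4. The difference of -0.27 (-0.72 to 0.18; limma adjusted p 0.93) rested on that array and was 0.0082 without it.

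Pmaip1 encodes NOXA, a p53-inducible BH3-only protein that mainly antagonizes MCL1. It read 3.30, 3.22 and 3.49 on the exposed and 3.22 and 3.10 on the control arrays. Exposed array 2 fell just below control array 1, so the groups touched, and exposed array 3 was the highest. The difference was 0.18 (-0.17 to 0.52; limma adjusted p 0.93) at a low level.

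Bid encodes the link between death receptors and mitochondria, since caspase-8 cuts it into its active form. It read 5.92, 6.10 and 5.93 on the exposed and 6.07 and 6.05 on the control arrays. Exposed array 2 was above both controls and the other two exposed arrays were below them. The difference was -0.08 (-0.39 to 0.23; limma adjusted p 0.95).

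The survival balance was described by centring each gene on its own mean over the 5 arrays, averaging the 4 pro-survival and the 5 pro-death genes separately, and subtracting the latter. The balance was -0.0096, 0.058 and -0.20 on exposed arrays 1 to 3 and 0.18 and -0.023 on the control arrays. Exposed arrays 1 and 2 fell between the controls, and exposed array 3 lay below all other arrays. The group means were -0.052 ± 0.136 (SD, n = 3) and 0.077 ± 0.143 (SD, n = 2), a difference of -0.129 that was smaller than either SD. No p was computed for a score over chosen genes.

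The lower balance of exposed array 3 came from the pro-survival side. Its pro-survival genes deviated by -0.18 on average and its pro-death genes by 0.020. Without Bcl2l1 the balance of that array was 0.044, and the difference between the groups was 0.0039. That difference averages over control arrays that lay apart, at 0.13 and -0.14. The SD without Bcl2l1 was 0.191 for the control and 0.069 for the exposed arrays, so the small difference does not show that the groups were alike. The pro-death genes differed between the groups by 0.0079 in mean deviation. With Bcl2l1 kept in the balance, the 2 control arrays were themselves 0.18 and -0.023. The group difference was then -0.028 without control array 1, -0.23 without control array 2 and -0.053 without exposed array 3.

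**Figure D4:**
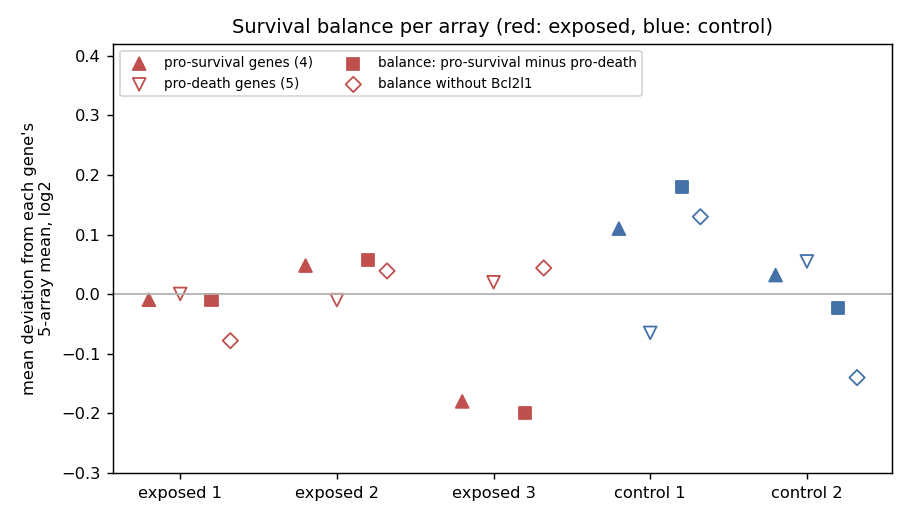
Mean deviation from each gene's own 5-array mean (vertical axis, log2 units) per array for the 4 pro-survival genes, the 5 pro-death genes, the balance between them, and the balance without Bcl2l1; red marks exposed and blue control arrays. Exposed array 3 has the lowest balance, -0.20, and reads 0.044 once Bcl2l1 is left out.

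The rest of the apoptosis pathway was examined in 7 lists with 67 genes, of which 62 were measured. None of the 62 was called by limma after adjustment over all probe sets, where the share called among all probe sets was 0%. An unadjusted p under 0.05 was found for 0 of the 62, beside 3.49% of all probe sets. In mean 39 were higher and 23 lower on exposed arrays, 62.9% higher beside 49.9% of all probe sets, with a median difference of 0.021. Centring each array on its median made this 32 higher and 30 lower, 51.6% higher beside 46.2% of all probe sets. A further quantile normalization gave 38 higher and 24 lower, 61.3% beside 50.4%. All exposed arrays lay above both controls for 10 of the 62 genes and below for 0, where the shares over all probe sets were 8.5% and 8.84%. With arrays centred on their medians these counts were 6 and 0, and after a further quantile normalization 6 and 1. Intervals excluded a 2-fold difference for 60 of the 62, all but Dffb and Birc3, and for 92.9% of all probe sets.

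None of the other family members was called either. The 4 further pro-survival genes had a median difference of -0.024 at a low median level of 2.76, with Bcl2l10 at 0.29 and Bcl2a1a at -0.19. Bcl2a1a is a member of a cluster of near-identical genes whose probe sets may share signal. Of the 12 further effector, BH3-only and BCL2-like genes, 8 were higher and 4 lower with a median of 0.030. The largest differences there were 0.28 (-0.21 to 0.76) for Bcl2l14 and 0.24 (-0.14 to 0.61) for Hrk, a BH3-only gene best known from neurons. Hrk was the 1 gene of these 12 with all exposed values above both controls, at 5.85, 5.59 and 5.53 against 5.52 and 5.32.

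Downstream of the mitochondria, 6 genes of the release and apoptosome list were higher and 4 lower, with a median of 0.016. Mtch2, which encodes a mitochondrial receptor for cleaved BID, differed by 0.32 (-0.23 to 0.87), with 9.72 on exposed array 3 against 8.90 to 9.11 elsewhere. Apaf1, the scaffold of the apoptosome, differed by -0.15 (-0.59 to 0.29). Among 10 measured genes of the caspases and the caspase-activated DNase, 9 were higher and 1 lower, with a median of 0.080. Of all probe sets 49.9% were higher. The split was 7 to 3 with median-centred arrays, beside 46.2% of all probe sets higher. After a further quantile normalization it was 8 to 2, beside 50.4%. Dffb, which encodes the DNase that fragments chromatin, read 4.26, 4.08 and 4.99 on exposed and 4.05 and 3.64 on control arrays. Its exposed values all lay above the controls, narrowly on array 2, and its difference of 0.60 (-0.12 to 1.32; limma adjusted p 0.93) did not pass. Casp14, a caspase of skin differentiation, differed by 0.33 (-0.07 to 0.74).

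The lists upstream and beside the family were centred near 0. Genes of the inhibitor of apoptosis proteins were 5 higher and 4 lower (median 0.0069), with Birc3 at -0.34 (-1.003 to 0.33) and Naip5 at 0.35 (-0.05 to 0.74). Death receptor genes were 5 higher and 3 lower (median 0.023). Within that list Fasl, the ligand of the Fas death receptor, differed by 0.38 (-0.06 to 0.82) at a dim level, and Tnfrsf10b, the mouse TRAIL receptor, by 0.28 (-0.19 to 0.74). Regulators of BCL2 family transcription and turnover were 5 higher and 4 lower (median 0.0079). Foxo3, a transcription factor that can induce Bcl2l11 and Bbc3, differed by 0.31 (-0.31 to 0.93). Huwe1, a ubiquitin ligase that targets MCL1 for destruction, differed by -0.25 (-0.81 to 0.32).

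**Figure D5:**
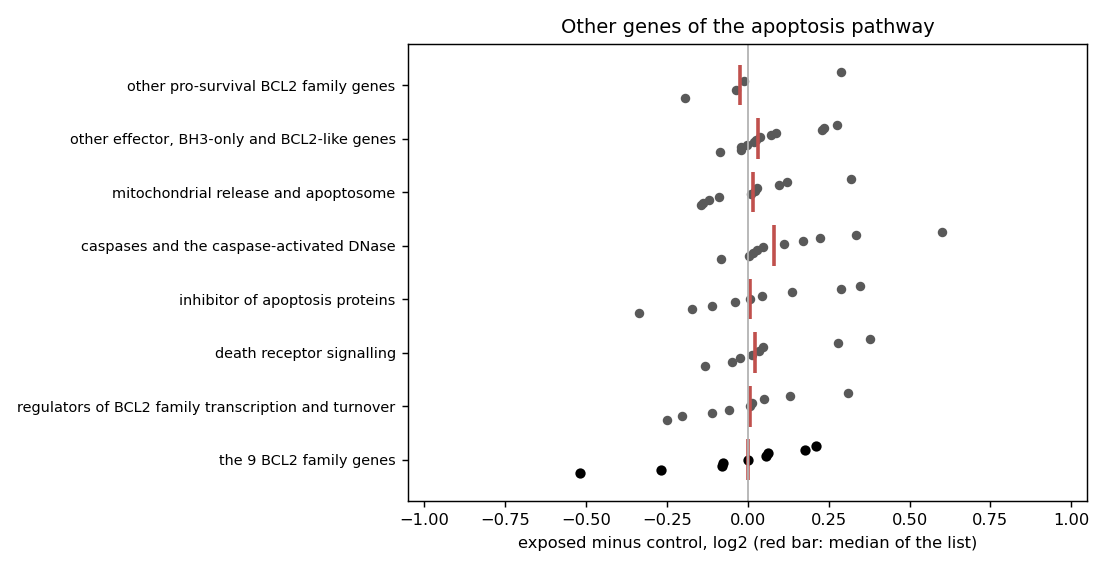
Exposed minus control difference (horizontal axis, log2) of each measured gene (points) in 7 lists of the apoptosis pathway and in the 9 BCL2 family genes, with red bars at the list medians. The medians lie between -0.024 and 0.080, and the widest points are Dffb at 0.60 and Bcl2l1 at -0.52.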

How the data were processed

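The authors deposited 1 table of log2 values, 1 per probe set and array, for which the submitters' processing notes name RMA and Partek; their versions and the build behind the annotation are not given in the sources used here. RMA corrects background, equalizes the arrays' distributions and summarizes the probes of a set. The table carries no detection calls, and 6038 probe sets, 2 of the 9 BCL2 family genes among them, hold the same value on 2 or more arrays. Symbols came from the platform annotation: 19572 probe sets had 1, 0 had several and 2634 had none; no coordinates are given because its build was not stated.

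All 22206 probe sets were fitted with limma 3.58.1 in R 4.3.3 (lmFit, then eBayes; the model held group alone; tests were two-sided; 3 residual degrees of freedom plus a prior of 3.17), with Benjamini-Hochberg adjustment and calls at an adjusted p under 0.05. The code of the fit was tried on simulated data with the same variance for every probe set. That trial cannot show how the intervals and calls behave under the unequal variances of the real arrays. Differences are exposed minus control with 95% intervals.

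The family and the 7 pathway lists were chosen with earlier results of these data known. Named were all measured family genes, the 2 genes of each list with the largest difference, and the 3 genes closest in pattern to the member of widest range. The alternatives were other scalings, no moderation, array weights, a level filter, a replicate block, another call rule, other genes in the balance, and each array left out.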

Additional observations from a re-analysis of the deposited data

How the results depend on the processing

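The count of called probe sets stayed at 0 under every alternative but 1: the rule of a 2-fold change plus an unadjusted p under 0.05 gave 4, with 0 in the BCL2 family. The lowest adjusted p of a family gene under any alternative was 0.76. Of the 9 genes, 5 kept their sign throughout, and Bcl2, Mcl1, Bak1 and Bcl2l11 did not; the cause was not tested. With 1 array left out, Bcl2 ranged from -0.241 to 0.0789, Mcl1 from -0.00505 to 0.102, Bak1 from -0.0967 to 0.0973 and Bcl2l11 from -0.547 to 0.00818. Bak1 was -0.0176 with median-centred arrays. The balance difference ranged from -0.23 to -0.028 with 1 array left out and was -0.087 without the dim Pmaip1. Leaving out a control array assumes that the other one scatters as the exposed arrays do. With the replicate number as a block, which leaves exposed array 3 without a partner, the balance was -0.053, Bcl2l1 was -0.162 and 0 genes were called. By construction these differences equal those without exposed array 3, so the block is not a separate check on them. Dropping moderation or filtering by level likewise leaves the difference of each gene kept unchanged, so neither could change a sign. Same-numbered arrays correlated at -0.014 and -0.032 in their deviations, and the replicate numbers were not taken as pairs. The numbers in the sample titles place control array 1 nearest exposed array 2, and control array 2 nearest exposed array 3. Those pairs correlated at 0.032 and 0.013, and no block by title number was fitted. With 2 control arrays the deviations of each mirror those of the other, so these correlations cannot settle whether arrays were paired. A second probe set per gene could not be tried because each family gene had 1. The arrays give no depth, and the low level of Pmaip1 limits what its interval says about RNA.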
